A study of Mus musculus with 6 samples.

Results

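The genes described here are 10 antiviral effectors induced by interferon: Isg15, Usp18, Mx1, Mx2, Rsad2, Cmpk2, Ifi44, Bst2, Xaf1 and Rtp4. They were taken by gene symbol from a table of 54532 genes, and each symbol matched 1 row. The table holds colon RNA from C57BL/6 mice aged 56 days, in 3 libraries labelled WT (wild type) and 3 labelled Il10 knockout (genotype IL10-/-). Neither the targeted allele nor any treatment is given in the sources used here. Values are FPKM, fragments per kilobase of gene length relative to library size as scaled by the authors, so levels of different genes can be set side by side. The genes were chosen because their values differed between these same groups. Their differences are therefore given as a description, without a test.

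Type I and type III interferons bind receptors that activate a complex of transcription factors called ISGF3, which includes STAT2 and IRF9. This complex binds a DNA motif called the interferon-stimulated response element and induces many genes that hinder viruses. In the gut, type III interferon acts mainly on the epithelium, and type I interferon acts on most cells. Interferon gamma acts through its own receptor and induces a set of genes that partly overlaps. Interleukin 10 is an anti-inflammatory cytokine whose loss in mice is used to model colitis.

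Where 3 values are listed for a group, they follow its libraries 1, 2 and 3. Reads recovered from the FPKM values numbered 13107941 to 15797928 per library. The scaling of the FPKM values implies library sizes of 16139300, 13202700 and 12924400 in WT and of 12622500, 15725900 and 16304200 in knockout. These sizes do not follow the recovered reads, which were fewest in WT library 1 and most in WT library 2. Il10 was at 0.757, 0.173 and 0.177 FPKM in WT and at 13.8, 10.6 and 14.5 FPKM in knockout. The targeted gene thus had higher values in all 3 libraries labelled Il10 knockout. WT and knockout below mean the libraries so labelled, and each direction depends on those labels. All 10 colon epithelium markers were detected in every library. WT libraries correlated less with each other (Pearson's r of log2 values across genes, 0.795 to 0.864) than knockout libraries did (0.935 to 0.961), and genes are not independent replicates. Mitochondrial genes took 20.3%, 11.7% and 43.4% of reads in WT and 22.0%, 8.61% and 15.5% in knockout, most in WT library 3, and the part of this in the results was not tested. A colonocyte gene and a muscle gene also differed widely among the WT libraries. Car1, a colonocyte carbonic anhydrase, was at 117, 31511 and 456 FPKM in WT and at 5716, 544 and 481 FPKM in knockout. Acta2, the actin of smooth muscle, had values of 458, 418 and 2561 FPKM in WT and of 312, 57.2 and 263 FPKM in knockout. Whether each library came from its own mouse is not stated, and p-values therefore reflect only how these libraries differ. In bulk tissue, fewer cells of a type and less RNA per cell cannot be told apart.

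The stretches before the start sites of Isg15, Rsad2 and Bst2 are shown because they hold the core of the interferon-stimulated response element, the motif through which ISGF3 acts. RefSeq promoter windows (GRCm38.p6, 250 bases before to 50 after the start) matched 6 of the 10 genes, and Usp18, Mx1, Mx2 and Rtp4 had no entry. The motifs searched, on both strands, were the response element core, which is GAAA, any 2 bases, then GAAA again, and the gamma-activated site, which is TTC, any 3 bases, then GAA. A tight form of the core, with only 1 base between the GAAA half-sites, was added after the sequences were seen. Capitals mark matches to the core or to its tight form, read on either strand. All 3 genes lie on the minus strand and are written 5′ to 3′ in the direction of transcription.
Isg15 (chr4:156200835-156200986, minus strand): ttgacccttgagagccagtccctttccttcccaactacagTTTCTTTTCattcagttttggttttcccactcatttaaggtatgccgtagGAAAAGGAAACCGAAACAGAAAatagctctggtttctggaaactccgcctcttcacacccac
Rsad2 (chr12:26456523-26456612, minus strand): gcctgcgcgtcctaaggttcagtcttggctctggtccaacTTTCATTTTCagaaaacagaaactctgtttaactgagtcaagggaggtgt
Bst2 (chr8:71537547-71537642, minus strand): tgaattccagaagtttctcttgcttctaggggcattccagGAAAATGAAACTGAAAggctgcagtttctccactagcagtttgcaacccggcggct
In Isg15, 3 overlapping copies of the core ran from base -78 to base -57 relative to the RefSeq start. A match to the tight form lay at -128 to -120. In Rsad2, 1 copy lay at -120 to -111, as TTTCATTTTC on the coding strand. In Bst2, 2 overlapping copies ran from -130 to -115, and the 1 gamma-activated site match among the 6 windows, at -136 to -128, overlapped them. The core was found in 3 of the 6 windows and in 3.44% of all 32851 windows of the same length. The gamma-activated site was found in 8.3% of all windows. The tight form was found in 3 of the 6 windows, those of Isg15, Ifi44 (-48 to -40) and Xaf1 (11 to 19), and in 3.17% of all windows. The Cmpk2 window held none of these motifs. A match describes the letters only and shows no binding.

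All 10 genes had a lower mean in the libraries labelled Il10 knockout. In 8 of the 10, each knockout value lay below each WT value; Usp18 and Mx1 were the exceptions. Over all 12668 genes averaging 1 FPKM or more, 7.89% had every knockout value below every WT value. All 10 genes passed that filter. Log2 fold changes were taken as knockout minus WT with a pseudocount of 1 FPKM, which understates changes of low genes. They ran from -2.11 (Rsad2) to -0.59 (Mx1), with a median of -1.51 against 0.04 over all genes tested. WT library 2 had the highest value for 9 of the 10 genes, all but Mx1, and for 29.9% of all genes tested. Without that library the median was -1.08, and 9 of the 10 genes had every knockout value below both remaining WT values, as 17.4% of all genes did.

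**Figure D1:**
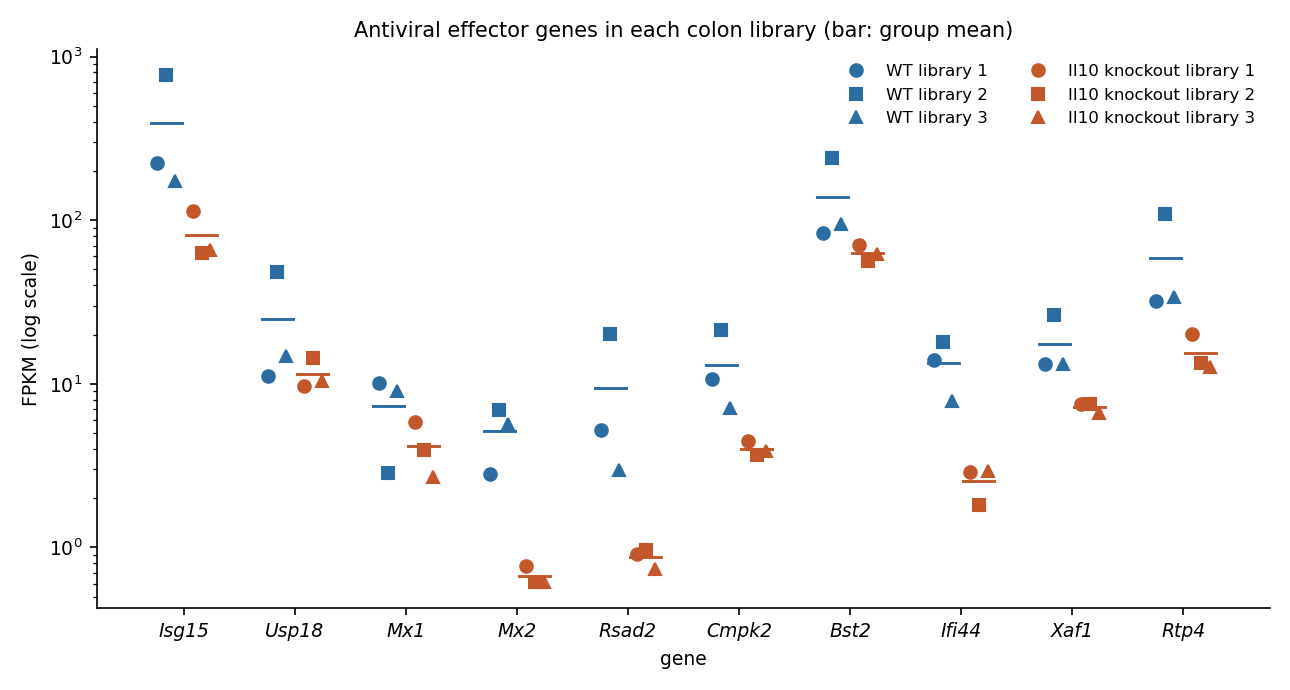
FPKM of the 10 genes (log axis) in each library, with WT in blue and Il10 knockout in orange, 1 symbol per replicate number and a bar at each group mean. Knockout values lie below WT values for all genes but Usp18 and Mx1, and WT library 2 is the highest for all but Mx1.

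Isg15 encodes a ubiquitin-like protein that is joined to other proteins during the interferon response and is also secreted. It (ENSMUSG00000035692; GRCm38 chromosome 4, 156199424 to 156200818, minus strand) had the highest level of the 10 genes in every library. Isg15 was at 223, 775 and 173 FPKM in WT and at 114, 63.1 and 65.7 FPKM in knockout. The groups did not overlap, but the lowest WT value was only 1.51 times the highest knockout value. The WT mean was 390 ± 335 FPKM and the knockout mean 81.0 ± 28.8 FPKM (SD, n = 3), a log2 fold change of -1.98 (SE 0.62). That value was -1.32 without WT library 2. Isg15 made up 47.7% to 61.2% of the summed FPKM of the 10 genes in the WT libraries and 38.1% to 48.2% in the knockout libraries.

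Usp18 encodes the protease that removes ISG15 from proteins and that also dampens signalling at the type I interferon receptor. Usp18 (chromosome 6, 121245906 to 121270917) was at 11.2, 48.3 and 14.8 FPKM in WT and at 9.68, 14.3 and 10.4 FPKM in knockout. Only WT library 2 stood apart, at 3.72 times the mean of WT libraries 1 and 3, and the other 5 libraries were intermixed. The log2 fold change was -0.78 (SE 0.53), and it was -0.17 without WT library 2. Leaving out WT library 1 instead gave -1.18. Isg15 exceeded Usp18 by 19.9, 16.05 and 11.7 times in WT and by 11.8, 4.41 and 6.29 times in the knockout libraries. Those ratios overlapped slightly between the groups, since knockout library 1 lay just above WT library 3. An overlapping antisense gene, Gm44148, shares 124 exon bases with Usp18 and was at 0 to 0.501 FPKM.

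Mx1 and Mx2 encode dynamin-like GTPases that block virus replication. They lie 72.4 kb apart on chromosome 16 and are transcribed away from each other. Laboratory strains such as C57BL/6 are known to carry defective alleles of both, and the deposited table lists Mx2 as a polymorphic pseudogene. Mx2 (97535308 to 97560900) was at 2.83, 6.94 and 5.72 FPKM in WT and at 0.767, 0.616 and 0.611 FPKM in knockout. Every WT value was at least 3.69 times every knockout value, the widest gap between groups of the 10 genes. The log2 fold change was -1.82 (SE 0.31) with the pseudocount of 1, and -2.83 with voom on the recovered reads. The knockout values rested on 35, 35 and 36 reads, and the exact 95% Poisson interval for knockout library 1, 0.534 to 1.07 FPKM, covers counting error only.

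Mx1 (97447035 to 97462907) departed from the other 9 genes. It was at 10.1, 2.86 and 8.99 FPKM in WT and at 5.86, 3.95 and 2.71 FPKM in knockout. WT library 2, the highest library for the other genes, was here the lowest WT library and lay within the knockout range. The log2 fold change was -0.59 (SE 0.46), and -1.07 without WT library 2, where the groups no longer overlapped. Leaving out WT library 1 gave -0.31, WT library 3 -0.39 and knockout library 3 -0.37. The ratio of Mx1 to Mx2 was 3.58, 0.413 and 1.57 in WT and 7.64, 6.41 and 4.43 in the knockout libraries. Mx1 RNA thus exceeded Mx2 RNA in every library but WT library 2. Mx1 and Mx2 are related in sequence and the handling of reads that map to both is not given, so their separate values are uncertain.

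Rsad2 and Cmpk2 act on nucleotides. Rsad2 encodes viperin, which makes a chain-terminating nucleotide from CTP, and Cmpk2 encodes a mitochondrial nucleotide kinase. They are neighbours on chromosome 12, with start sites 12.8 kb apart and transcription in opposite directions. Rsad2 (26442746 to 26456452) was at 5.20, 20.1 and 2.98 FPKM in WT and at 0.914, 0.968 and 0.736 FPKM in knockout, the latter from 50, 66 and 52 reads. Its WT mean was 10.8 times its knockout mean, the highest ratio of the 10 genes, and the log2 fold change was -2.11 (SE 0.58). WT library 2 alone was 23.0 times the knockout mean, against 5.96 and 3.42 times for WT libraries 1 and 3. Without WT library 2 the log2 fold change was -1.41.

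Cmpk2 (26469204 to 26479837) followed the order of its neighbour among the WT libraries. It was at 10.7, 21.4 and 7.10 FPKM in WT and at 4.47, 3.65 and 3.89 FPKM in knockout, and the groups did not overlap. The log2 fold change was -1.37 (SE 0.38). Over the 6 libraries, Pearson's r between the log2 values of Cmpk2 and Rsad2 was 0.99. The size of the difference was not the same, however. Cmpk2 exceeded Rsad2 by 2.06, 1.07 and 2.38 times in WT and by 4.89, 3.77 and 5.29 times in the knockout libraries, where the ranges do not meet.

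**Figure D2:**
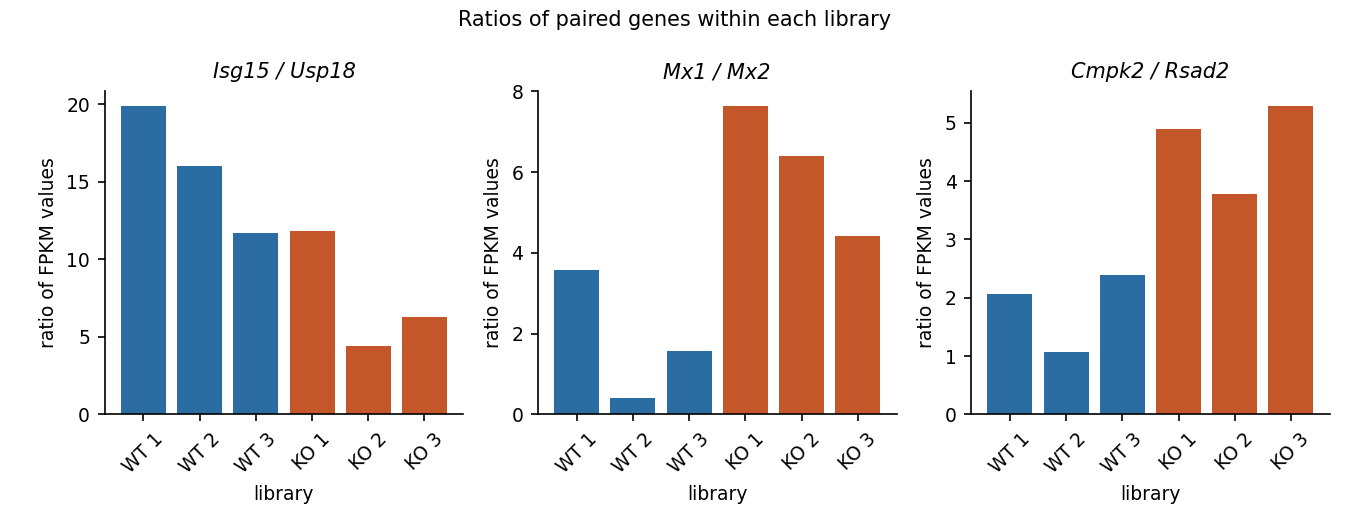
Ratios of FPKM values within each library for Isg15 over Usp18, Mx1 over Mx2 and Cmpk2 over Rsad2 (WT blue, Il10 knockout, written KO, orange). The Cmpk2 to Rsad2 and Mx1 to Mx2 ratios are higher in all 3 knockout libraries than in any WT library, and the Mx1 to Mx2 ratio is below 1 only in WT library 2.

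Bst2 encodes tetherin, a membrane protein that holds budding virus particles on the cell surface. It (chromosome 8, 71534255 to 71537456) was, after Isg15, the most abundant of the 10 genes in every library. Bst2 was at 83.1, 239 and 94.8 FPKM in WT and at 70.6, 56.4 and 62.0 FPKM in knockout. The groups did not overlap, by a narrow margin: WT library 1 was 1.18 times knockout library 1. This gave a log2 fold change of -0.97 (SE 0.45), and -0.49 without WT library 2. In mice, Bst2 also marks plasmacytoid dendritic cells, which make type I interferon. Siglech, a defining marker of those cells, had 1, 1 and 0 reads in WT and 3, 9 and 14 reads in the knockout libraries, near 0 in all 6. Of 10 listed markers of those cells 6 were tested, 2 of them with higher and 4 with lower values in knockout. Limma called none, with an unadjusted p under 0.05 for 2, and the share of all genes with such a p was not counted. The higher ones, Ly6d and Irf8, had log2 fold changes of 4.74 and 1.07 and groups that did not overlap (limma adjusted p = 0.162 and 0.360, and from 0.0499 to 0.638 over all settings for Ly6d). Klk1, Pacsin1, Tcf4 and Spib had log2 fold changes between -0.72 and -0.09, with overlapping groups. The part of these cells in the Bst2 values was not tested.

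Ifi44 encodes an interferon-induced protein with a GTP-binding motif. It (chromosome 3, 151730922 to 151749960) was at 13.99, 18.1 and 7.90 FPKM in WT and at 2.88, 1.82 and 2.95 FPKM in knockout. Each WT value was at least 2.68 times each knockout value. Its log2 fold change was -1.96 (SE 0.33), and -1.72 without WT library 2. WT libraries 1 and 3 alone were 5.49 and 3.10 times the knockout mean, so this difference rested less on WT library 2 than that of Isg15 or Rsad2. Its relative Ifi44l, named after its values were seen, had 1 read in all 6 libraries together.

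Xaf1 encodes a zinc-finger protein that binds the apoptosis inhibitor XIAP. Xaf1 (chromosome 11, 72301629 to 72313733) was at 13.1, 26.2 and 13.2 FPKM in WT and at 7.57, 7.49 and 6.67 FPKM in knockout. The groups did not overlap, and the knockout libraries differed little among themselves, with a coefficient of variation of 6.85%. Its log2 fold change was -1.10 (SE 0.31). Rtp4 encodes a protein first described as a chaperone of cell-surface receptors. Rtp4 (chromosome 16, 23520291 to 23614222) was at 32.1, 109 and 34.0 FPKM in WT and at 20.0, 13.3 and 12.7 FPKM in knockout. These groups did not overlap either, and the log2 fold change was -1.65 (SE 0.51), or -1.09 without WT library 2. Rtp4 shares 296 exon bases with Gm45338, which was at 0 to 0.0297 FPKM, and none with Masp1 on the other strand.

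**Figure D3:**
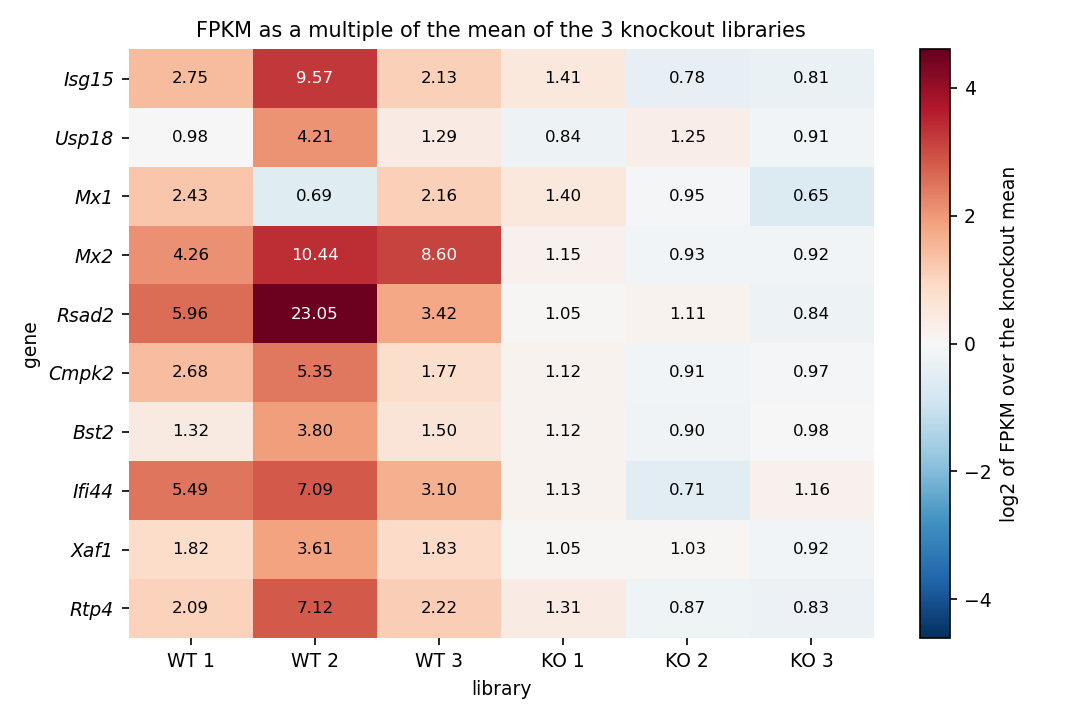
FPKM of each gene in each library divided by its mean over the 3 Il10 knockout libraries (KO), printed in the cells and coloured on a log2 scale. WT library 2 holds the highest multiples, up to 23.05 for Rsad2, and Mx1 alone is below 1 there.

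The order of levels was stable at the top and changed below it. Isg15 and Bst2 led in that order in every library, and Rtp4 came next in all but knockout library 2, where Usp18 did. Neighbours in the middle of the order, such as Usp18, Xaf1 and Cmpk2 in WT, differed by less than their spread between libraries. Mx2 and Rsad2 were the lowest 2 genes in every knockout library and in WT libraries 1 and 3, and Mx1 and Mx2 were the lowest 2 in WT library 2. Summed over the 10 genes, the levels came to 405, 1268 and 362 FPKM in WT and to 237, 166 and 168 FPKM in knockout. As recovered reads, before any scaling, the 10 genes had 9783, 21334 and 6945 reads in WT and 4046, 3926 and 3962 reads in knockout.

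The WT libraries varied more than the knockout libraries for all 10 genes. The median SD of log2 values was 0.83 in WT and 0.22 in knockout. Over all genes tested these were 0.48 and 0.25, and WT had the larger SD for 78.6% of genes. Much of the WT spread came from WT library 2. That library exceeded the mean of WT libraries 1 and 3 by a median of 1.31 on the log2 scale over the 10 genes, against 0.05 over all genes tested. Within the 10, the excess ran from 2.09 for Rsad2 and 1.98 for Isg15 down to 0.72 for Ifi44 and 0.65 for Mx2, and was -1.45 for Mx1.

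Leaving Mx1 aside, the other 9 genes varied together across libraries. Over the 6 libraries their 36 pairs had Pearson's r between 0.62 and 0.99, with a median of 0.92. These values describe 6 libraries that share the group difference, so r was also taken on deviations from the group means. It then ran from 0.04, for Mx2 with Ifi44, to 0.98, for Isg15 with Rtp4, with a median of 0.88. The 9 pairs with Mx1 had r between -0.41 and 0.28, and between -0.88 and -0.54 on deviations.

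Among 11215 other protein-coding genes averaging 1 FPKM or more, the 6 most like the mean of the 10 standardised genes across the 6 libraries were Trim23 (r = 0.997), Dhx58 (0.99), Ly6g6d (0.99), Susd1 (0.99), Hunk (0.99) and Trim30d (0.98). The median r over these 11215 genes was 0.05. The group difference, for which the 10 genes were chosen, enters this r. On deviations from the group means the 6 had r from 0.95 to 0.99. WT library 2 was the highest library for each of the 6, so it weighs heavily in that r too. Dhx58, a cytosolic RNA helicase of the interferon response, was at 13.3, 23.0 and 10.4 FPKM in WT and at 6.68, 5.77 and 4.52 FPKM in knockout. Trim30d was at 21.9, 34.9 and 17.2 FPKM in WT and at 7.40, 6.90 and 5.94 FPKM in knockout. Trim23, a ubiquitin ligase, followed the same order at a low level, with 1.82, 2.45 and 1.76 FPKM in WT and 1.28, 1.23 and 1.11 FPKM in knockout. Ly6g6d, Susd1 and Hunk were low as well, at no more than 4.01 FPKM in any library. Of the 10 genes themselves, Xaf1 was closest to that mean (r = 0.99) and Mx1 farthest from it (r = 0.13). Among the 30 genes ranked most alike of the 11215, 4 belonged to a list of 44 other type I interferon-stimulated genes, 43 of which averaged 1 FPKM or more.

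The pathway around these genes was examined through lists, which were chosen with earlier results of these data known. Counts come from limma fitted over all 12668 genes with Benjamini-Hochberg adjustment at 0.05, by which 0.182% of genes were called, all of them higher in knockout. None of the genes of the pathway lists described next was called by limma, nor by voom on the recovered reads. For the counts of direction and of unadjusted p below, 45.9% of all 12668 genes had a lower value in knockout. Of the 12668, 510 were lower with an unadjusted p under 0.05 in limma, and the number higher at that p was not counted. Of all genes tested, 23 were called; leaving out a single library gave 12 (WT library 1), 26 (WT library 2), 5 (WT library 3), 29 (knockout library 1), 4 (knockout library 2) or 7 (knockout library 3).

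Interferon transcripts themselves were nearly undetectable at this depth. All 20 listed type I and type III interferon genes were in the table, and 18 of them had no read in any library, Ifnb1 included. Ifnk had 2 reads in knockout library 1 and 7 in knockout library 2, and Ifnl3 had 1 read in WT library 1. A count of 0 allows up to 3 reads per library, so low levels cannot be told from none. How reads shared by the near-identical Ifna genes were counted is not given.

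Genes for receptors and ISGF3 signalling had no common direction. Of 8 tested, 6 had higher and 2 lower values in knockout, 2 had an unadjusted p under 0.05 in limma, and the median log2 fold change was 0.15 against 0.04 over all genes. The 2 lower ones were the ISGF3 subunits Irf9 and Stat2. Irf9 was at 16.002, 22.4 and 18.9 FPKM in WT and at 13.3, 11.1 and 9.47 FPKM in knockout (log2 fold change -0.71, SE 0.25, limma adjusted p = 0.444). Stat2 was at 28.9, 29.8 and 28.1 FPKM in WT and at 22.4, 17.2 and 12.8 FPKM in knockout (-0.73, SE 0.28, limma adjusted p = 0.459). Neither gene's groups overlapped, and Stat2 differed little among the WT libraries. Ifnar2, a type I receptor chain, had a log2 fold change of 0.48 (SE 0.25, limma adjusted p = 0.571), with overlapping groups.

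Of the 5 genes for the enzymes that join ISG15 to proteins, 3 had lower and 2 higher values, none had an unadjusted p under 0.05 in limma, and the median was -0.21, or 0.19 without WT library 2. WT library 2 was the highest library for 4 of the 5, all but Uba7, and for 29.9% of all genes tested. Uba7, the activating enzyme, was at 9.9996, 12.0 and 7.52 FPKM in WT and at 12.2, 13.5 and 10.6 FPKM in knockout (log2 fold change 0.29, SE 0.25, limma adjusted p = 0.745). Herc6, the main ligase in mice, had a log2 fold change of -0.60 (SE 0.36, limma adjusted p = 0.632). Trim25, a ubiquitin and ISG15 ligase, had one of -0.44 (SE 0.55, limma adjusted p = 0.835) and was at 101 FPKM in WT library 2 against 25.5 and 27.1 FPKM in WT libraries 1 and 3. All 3 had overlapping groups.

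Sensors and factors that induce interferon were split. Of 14 tested, 7 had higher and 7 lower values, 3 had an unadjusted p under 0.05 in limma, and the median was 0.04, the same as over all genes. The RNA helicase genes Ddx58 (RIG-I) and Dhx58 had log2 fold changes of -0.94 (SE 0.23) and -1.26 (SE 0.33), with limma adjusted p of 0.279 and 0.306 and no overlap between groups. Tmem173, which encodes the DNA-sensing adaptor STING, went the other way, at 7.75, 1.18 and 3.23 FPKM in WT and at 15.9, 12.2 and 11.6 FPKM in knockout (1.71, SE 0.49, limma adjusted p = 0.346). Irf7, the factor that amplifies interferon production, was named after its values were seen. It was at 83.4, 483 and 131 FPKM in WT and at 89.9, 50.5 and 41.1 FPKM in knockout, so WT library 2 again stood above the rest and the groups overlapped.

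Other type I interferon-stimulated genes mostly had lower values in knockout. Of 43 tested out of 44, 38 had lower and 5 higher values, 15 had an unadjusted p under 0.05 in limma, and the median was -0.58. In 15 of the 43 every knockout value lay below every WT value, against 7.89% of all genes. WT library 2 was the highest library for 31 of the 43, against 29.9% of all genes tested. The 3 with the smallest p did not show that excess of WT library 2 in the same way. Oas2, a synthetase activated by double-stranded RNA, was at 40.3, 34.5 and 43.2 FPKM in WT and at 7.55, 3.74 and 1.97 FPKM in knockout (-3.02, SE 0.40, limma adjusted p = 0.0615). Ifi27l2a had a log2 fold change of -3.97 (SE 0.59, limma adjusted p = 0.0752) and Oas1b one of -2.20 (SE 0.38, limma adjusted p = 0.105). WT library 2 was the lowest WT library for Oas2 and Oas1b, as it was for Mx1. Oas2 was called without knockout library 1 (limma adjusted p = 0.0424), and over all settings its adjusted p lay between 0.012 and 0.301.

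Interferon-gamma response genes had the opposite sign. Of 27 tested out of 28, 26 had higher and 1 a lower value in knockout, and the median was 1.41. In limma 19 had an unadjusted p under 0.05, and the number of all genes higher at that p was not counted. In 15 of the 27 every knockout value lay above every WT value, against 8.84% of all genes. The mean log2(FPKM + 1) of the 28 genes was 4.52, 3.23 and 2.77 in WT and 4.91, 5.46 and 4.89 in knockout. WT library 1 thus lay closest to the knockout libraries. Over all settings the median log2 fold change of the list lay between 0.985 and 1.84. Ido1, a tryptophan-degrading enzyme, was at 40.7, 2.66 and 2.84 FPKM in WT and at 282, 419 and 186 FPKM in knockout (log2 fold change 5.07, SE 0.95, limma adjusted p = 0.138). It was called without WT library 1 (limma adjusted p = 0.0231), and over all settings its adjusted p lay between 0.0231 and 0.596. Wars, a tryptophanyl-tRNA synthetase, had a log2 fold change of 2.38 (SE 0.50, limma adjusted p = 0.189). Socs1, an inhibitor of interferon signalling, had one of 2.07 (SE 0.45, limma adjusted p = 0.205). WT library 2, the highest of all libraries for 9 of the 10 antiviral effectors, was the highest for none of these 27 genes. It was the highest for 29.9% of all genes tested.

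**Figure D4:**
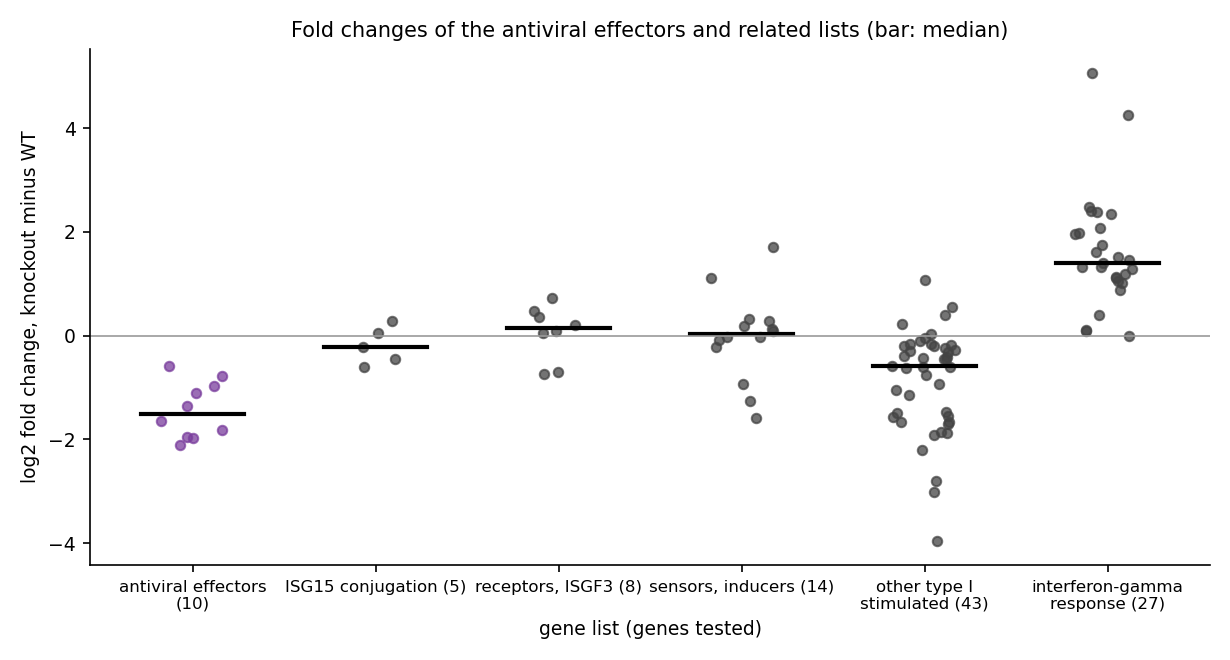
Log2 fold change (Il10 knockout minus WT, log2(FPKM + 1) scale) of each gene tested in each list, with the list's median as a bar. The 10 antiviral effectors (purple, chosen on this contrast) lie between -2.11 and -0.59, receptors and sensors centre near 0, and the interferon-gamma list has a median of 1.41.

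Cell type markers moved with the libraries as well. The mean log2(FPKM + 1) of the 10 effectors was 4.22, 5.28 and 4.12 in WT and 3.29, 3.04 and 2.99 in the knockout libraries. The mean of the 10 epithelium markers was 6.98, 9.09 and 6.84 in WT and 8.46, 8.25 and 7.82 in knockout. WT library 2 thus had the highest mean for both. WT libraries 1 and 3 had lower epithelial means and higher effector means than every knockout library. Single epithelium markers did not all follow the mean. WT library 2 was the highest library for 7 of the 10, against 29.9% of all genes tested. Muc2 had its lowest value there, 48.2 FPKM, against 175 and 373 FPKM in WT libraries 1 and 3. The mean of the 10 smooth muscle markers was 5.30, 5.18 and 7.50 in WT and 4.83, 2.94 and 4.69 in knockout, with none of them at 0. Summed FPKM ran from 1266 to 8932 in WT and from 177 to 1012 in knockout for smooth muscle, and from 2106 to 40299 and from 5961 to 13780 for epithelium. Car1 alone, at 31511 FPKM, made up most of the epithelium sum of WT library 2. It gave 5716 FPKM of the sum of knockout library 1, the highest of the knockout sums. The part of these differences in the effector values was not tested.

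Of the immune and endothelial marker lists, only the neutrophil list had sums that did not overlap between the groups. Summed neutrophil markers ran from 1.74 to 126 FPKM in WT and from 953 to 1886 FPKM in knockout, and 5 or 6 of the 10 were at 0 in each WT library. Of that list, S100a8 and S100a9, which encode calprotectin, were called higher in knockout (limma adjusted p = 0.00226 and 0.000486; log2 fold changes 9.10 and 8.42). Over all settings the limma adjusted p reached 0.0883 for S100a8 and 0.0452 for S100a9. Summed macrophage markers ran from 104 to 207 FPKM in WT and from 114 to 215 FPKM in knockout, T cell markers from 21.1 to 61.4 and from 46.9 to 60.8 FPKM. Summed B and plasma cell markers ran from 482 to 17018 FPKM in WT and from 4174 to 7282 FPKM in knockout, and endothelial markers from 38.3 to 79.1 and from 31.3 to 55.4 FPKM. Igkc made up most of the B and plasma cell sum in every library, with 16446 FPKM in WT library 1. Summed plasmacytoid dendritic cell markers ran from 128 to 917 FPKM in WT and from 369 to 511 FPKM in knockout, but Klk1 and Ly6d, which other cells express too, made up most of that sum. Klk1 was at 868, 108 and 307 FPKM in WT and at 236, 183 and 285 FPKM in knockout, and Ly6d at 23.7, 1.43 and 1.87 FPKM in WT and at 99.1, 293 and 111 FPKM in knockout. By these sums, WT library 2 was the highest library for the endothelial list alone of the 6. The part of immune cells in the effector values was not tested.

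**Figure D5:**
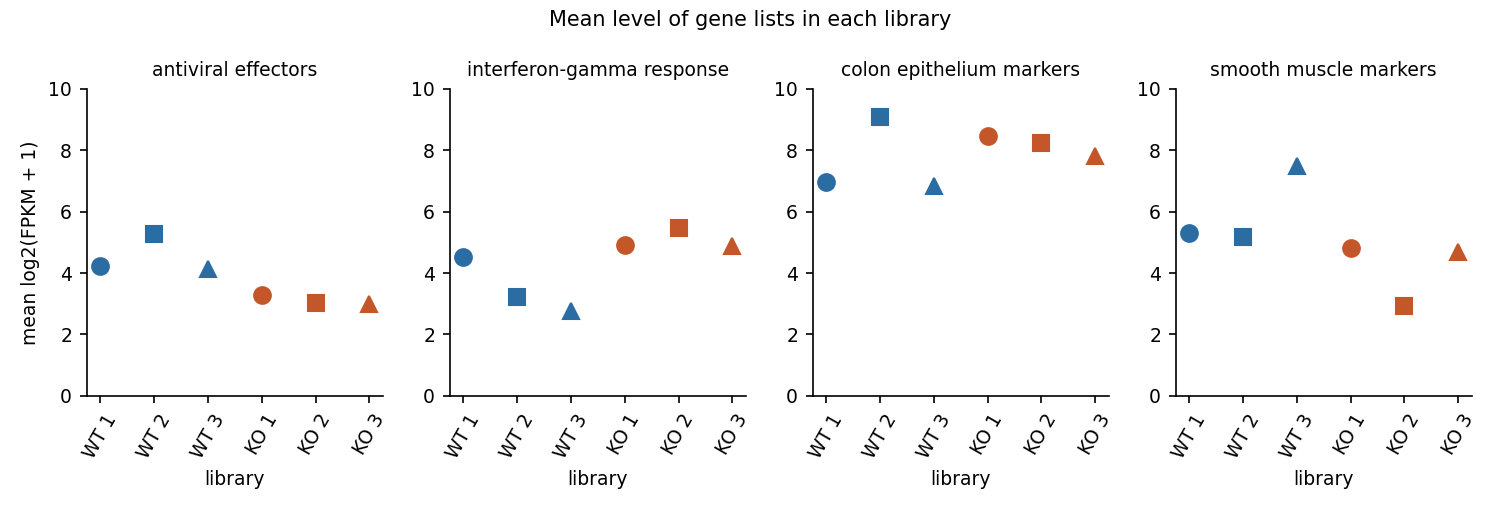
Mean log2(FPKM + 1) of the 10 antiviral effectors, 28 interferon-gamma response genes, 10 colon epithelium markers and 10 smooth muscle markers in each library (WT blue, Il10 knockout, written KO, orange). The effectors are lower in all 3 knockout libraries, epithelium is highest in WT library 2, and smooth muscle is highest in WT library 3. The interferon-gamma list is higher in all 3 knockout libraries, with WT library 1 the closest to them.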

How the data were processed

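Colon RNA of 6 libraries was used, grouped by sample title; NEBNext Ultra libraries were made from total RNA, per the labels' protocols. The authors deposited 1 table of FPKM values. The submitters' processing notes name Bowtie 0.12.2, hg38 and mm8, with no role given; the sources used here do not give the counting tool, its strand setting or how reads mapping to several places were treated. Of 54495 gene identifiers found in GENCODE M21, 98.3% had identical coordinates, so coordinates are given as GRCm38.

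Divided by the smallest product in its library, FPKM times gene length came out whole (within 0.01) for 100% of values above 0, which gave the recovered reads. Chi-square per gene was at least 80.1 for every pair of libraries, so none repeats another. Values were fitted as log2(FPKM + 1) for genes averaging 1 FPKM or more, using limma 3.58.1 (mean trend) in R 4.3.3, after tests on simulated data. Tables were made with pandas 2.3.3 and numpy 2.4.6 (Python 3.11.15), figures with matplotlib 3.10.9. The 10 genes and all lists were chosen with earlier results of these data known. A gene of the receptor list is not reported here. Named list genes are those called or, with none called, the 3 with the smallest p; the 6 genes most alike were ranked by Pearson's r. Alternatives changed the pseudocount, filter, scaling, variance model, weights, replicate block or libraries.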

Additional observations from a re-analysis of the deposited data

How the results depend on the processing

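Under all 18 alternatives every antiviral effector tested kept a lower knockout mean; Mx2 was not tested at a mean FPKM of at least 5, which leaves 9. The median log2 fold change lay between -1.71 and -1.08, the latter without WT library 2. The number of effectors with every knockout value below every WT value was 7 to 9 over the 11 settings in which it was counted, against 8 as reported. Mx2 had a log2 fold change of -2.70 and -2.85 with pseudocounts of 0.1 and 0.01 and -1.39 with a weight per library; Usp18 ran from -1.18 to -0.06. Called genes over all genes tested numbered 23; they were 9 with a pseudocount of 0.01, 4 with no filter, 46 with TPM, 2 with voom and 331 with a weight per library, and 4 to 29 with 1 library left out. The weights were 2.76, 0.198 and 0.465 for WT libraries 1 to 3, so the WT side of that fit rested mostly on WT library 1.

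Library numbers are not said to pair samples between the groups. Deviations from the group means correlated at -0.15, 0.18 and 0.40 for numbers 1 to 3, and the value for number 3 was the highest of all such pairs. WT library 2 correlated about as well with knockout library 1 (0.177) as with its own number (0.180). WT library 1 correlated better with knockout library 2 (0.10) than with its own number. These values do not settle whether the numbers pair samples. With the replicate block 7 genes were called. The ISG15 conjugation median changed sign with a weight per library (0.12) and lay between -0.37 and 0.19 with 1 library left out; it was 0.19 without WT library 2. The receptor median lay between -0.011 and 0.33 with 1 library left out, below 0 without WT library 3 alone. The sensor median was -0.019 with no filter, -0.015 with quantile normalization and -0.033 with weights. It lay between -0.075 and 0.17 with 1 library left out, below 0 without WT library 3 or knockout library 1. Among list genes, Oas2 was called at a mean FPKM of at least 5, with TPM, with weights and without knockout library 1, Ifi27l2a with TPM and weights, Trim30d with quantile normalization and weights. Apol9b, Trim30a, Ddx60, Oas1b and Dhx58 were called with weights alone, and Ido1 without WT library 1. The cause of these changes was not tested. Depth limits values that rest on few reads, such as those of the interferon genes, Siglech and, in knockout, Mx2 and Rsad2.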
